A study of Mus musculus with 12 samples.

Results

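Aminoacyl-tRNA synthetases load each amino acid onto its transfer RNA before translation. The genes considered here are the 36 of these enzymes listed by symbol, of which 20 serve the cytosol and 16 the mitochondria. They were found among the probes of mouse Illumina arrays through the symbol of the array platform, in its current or an older form. A total of 35 genes had at least 1 probe, 73 probes in all of the 35784 probes with a gene symbol. The cytosolic enzyme for aspartate, Dars, was not analysed here. The probes of Hars2 and Yars2, mitochondrial enzymes for histidine and tyrosine, were above background on no array. That left 33 genes to test, 19 cytosolic and 14 mitochondrial, among 11472 genes in all. Of these, 16 cytosolic and 11 mitochondrial genes were above background on all 12 arrays.

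RNA came from bone marrow of β-globin/GFP transgenic mice aged 3 months, and each of 4 groups held 3 arrays. The SCF group was CD117+ cells given stem cell factor, the ligand of the receptor CD117 (c-Kit), at 3 µg per ml for 48 h, and the U group was CD117+ cells taken here as its untreated control because of the letter in the titles alone. The C group was CD117+ cells and the A group CD117− cells, separated with magnetic beads. According to the study each replicate of the CD117+ and CD117− fractions was from its own mouse, but it does not tell which replicate numbers share a mouse or how long the C cells were in culture. Where SCF and U cells did not come from separate mice, the spread between their arrays may be technical. Kit, the gene of CD117 itself, was 4.46-fold higher in C than in A cells, 1.40-fold higher in SCF than in U cells and 2.45-fold lower in U than in C cells (adjusted p = 4.94e-09, 0.0236 and 1.56e-06, limma).

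The enzymes fall into class I and class II by the fold of their catalytic domain. In animals most amino acids have a cytosolic enzyme and a separate mitochondrial one encoded by another nuclear gene, whose name ends in 2. Kars and Gars each encode both forms. Mitochondria make glutaminyl-tRNA without a glutaminyl synthetase of their own, by Ears2 followed by an amidotransferase of the subunits Gatb, Gatc and Qrsl1. In the cytosol Eprs (which joins glutamate and proline activities in 1 protein), Iars, Kars, Lars, Mars, Qars, Rars and Dars form the multisynthetase complex with the scaffold proteins Aimp1, Aimp2 and Eef1e1. Blood progenitors that proliferate need both sets for protein synthesis. A set of cytosolic synthetase genes is also known for transcription by ATF4, the effector of the amino acid and integrated stress responses, through a composite C/EBP-ATF element near the start of the gene.

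That element was therefore looked for in the promoters (250 bases before to 50 after the start of a gene, RefSeq, GRCm38.p6), of which 27 of the 36 genes had one, 13 cytosolic and 14 mitochondrial. The letters searched, on both strands, were TGATGNAAN. They stood in 5 of 13 cytosolic promoters (38.5%), in 0 of 14 mitochondrial ones and in 1299 of all 32851 promoters of this length (3.95%). The E-box CACGTG, a site that reads the same on both strands and is bound by MYC and related factors, stood in 4 of 13 cytosolic promoters (30.8%), those of Aars, Farsb, Iars and Tars, in 1 of 14 mitochondrial ones (7.14%), that of Ears2, and in 2349 of all promoters (7.15%). The motifs do not overlap in the promoters printed. The 5 with the composite element are shown because their genes are set against the others further on. They run 5′ to 3′ on the strand of the gene, with matches to either motif in capitals, so that an element on the opposite strand appears as its reverse complement. Aars holds 2 matches to the composite element, Gars and Tars have theirs before the start of the gene and Iars and Yars just after it. A match describes the letters only.
Aars, alanine, chr8:111033592-111033891, + strand: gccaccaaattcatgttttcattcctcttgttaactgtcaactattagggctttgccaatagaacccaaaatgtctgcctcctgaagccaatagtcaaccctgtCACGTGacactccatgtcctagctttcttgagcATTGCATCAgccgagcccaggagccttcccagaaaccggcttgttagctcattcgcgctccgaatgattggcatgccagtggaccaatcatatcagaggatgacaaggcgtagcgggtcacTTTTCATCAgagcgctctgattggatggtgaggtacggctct
Tars, threonine, chr15:11399609-11399908, - strand: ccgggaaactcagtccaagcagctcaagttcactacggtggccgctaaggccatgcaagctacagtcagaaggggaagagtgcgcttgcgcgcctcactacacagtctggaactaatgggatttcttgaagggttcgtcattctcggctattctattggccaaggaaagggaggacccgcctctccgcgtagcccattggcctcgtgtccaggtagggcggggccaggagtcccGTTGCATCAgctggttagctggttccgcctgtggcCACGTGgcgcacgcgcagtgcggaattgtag
Iars, isoleucine, chr13:49681880-49682179, + strand: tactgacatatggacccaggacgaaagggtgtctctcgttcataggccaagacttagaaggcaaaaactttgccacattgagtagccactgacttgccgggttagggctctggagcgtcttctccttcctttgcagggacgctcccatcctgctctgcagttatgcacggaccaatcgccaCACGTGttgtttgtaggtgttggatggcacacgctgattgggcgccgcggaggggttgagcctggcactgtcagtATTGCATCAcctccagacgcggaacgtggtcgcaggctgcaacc
Gars, glycine, chr6:55037751-55038050, + strand: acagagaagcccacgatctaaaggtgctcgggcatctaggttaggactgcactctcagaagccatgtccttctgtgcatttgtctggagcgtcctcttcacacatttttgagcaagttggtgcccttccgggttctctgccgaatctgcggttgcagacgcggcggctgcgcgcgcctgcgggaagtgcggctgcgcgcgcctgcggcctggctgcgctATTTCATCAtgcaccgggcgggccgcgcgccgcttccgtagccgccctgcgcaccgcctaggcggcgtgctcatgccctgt
Yars, tyrosine, chr4:129189653-129189952, + strand: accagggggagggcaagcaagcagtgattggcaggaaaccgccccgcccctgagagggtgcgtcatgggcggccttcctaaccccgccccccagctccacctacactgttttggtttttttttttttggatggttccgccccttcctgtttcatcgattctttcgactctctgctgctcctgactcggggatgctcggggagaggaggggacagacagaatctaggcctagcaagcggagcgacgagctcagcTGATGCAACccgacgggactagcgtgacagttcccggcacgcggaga

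Each probe reports the brightness of 1 transcript, given here as a log2 intensity after background correction and quantile normalization of all 12 arrays together. Genes were compared with limma, and a gene was called where its adjusted p (Benjamini-Hochberg over all 11472 genes) was under 0.05. All adjusted p-values below come from that fit. Levels of different genes were not set against each other, because probes differ in brightness. In whole-cell RNA of a mixed population, fewer cells of a type and less RNA per cell cannot be told apart. Between 16210 and 18248 probes were above background per array, fewest on the A arrays (16210 to 17394).

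**Figure D1:**
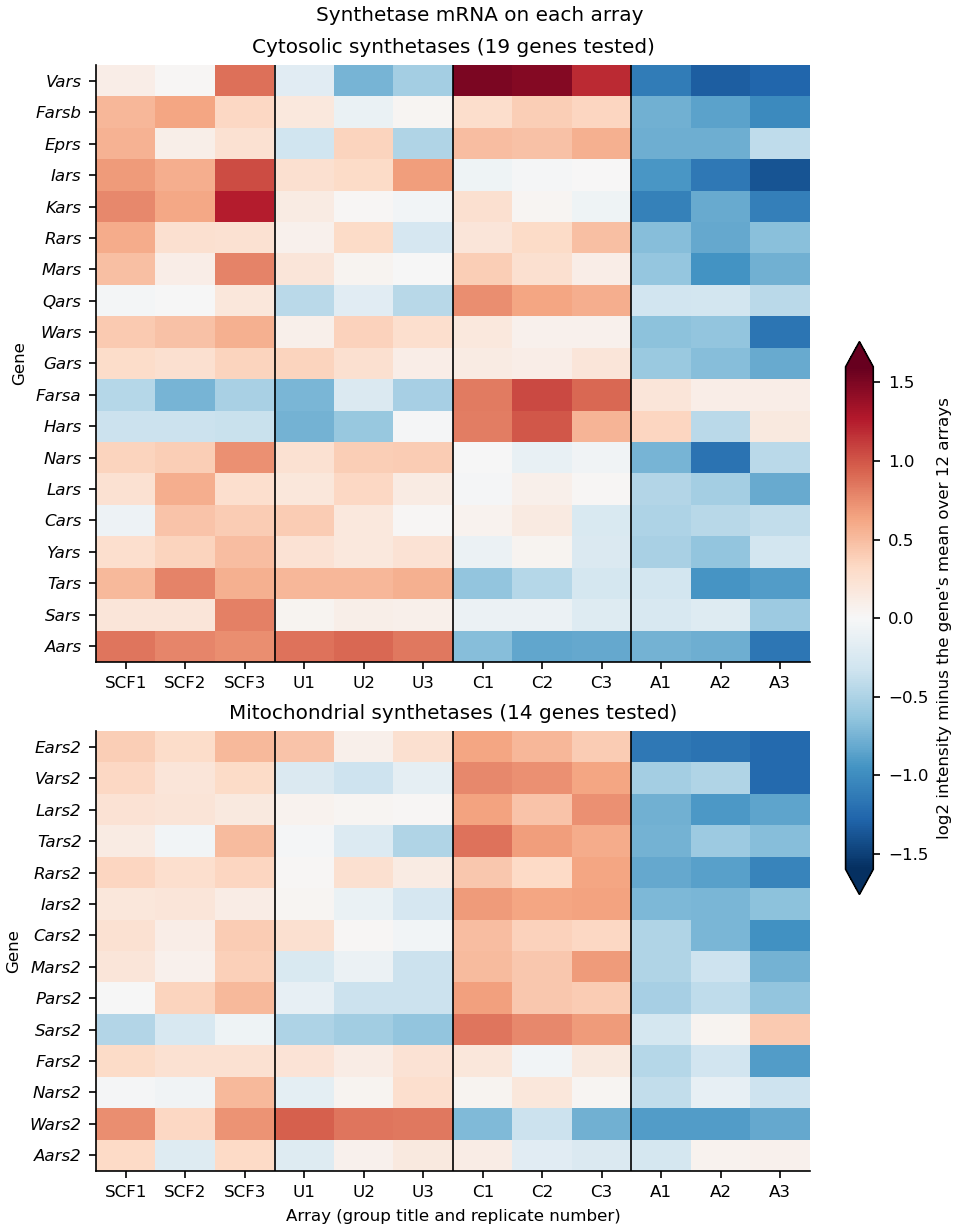
Log2 intensity of each tested gene on each of the 12 arrays (columns: SCF, U, C and A, 3 arrays each), less the mean of that gene over all arrays, with genes ordered by the difference of C from A. Most rows are lowest on the A arrays, the mitochondrial rows are mostly highest on the C arrays, and Aars, Tars and Wars2 stand apart by being high on the SCF and U arrays alike.

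The comparison of C with A cells asked which genes differ between the CD117+ and CD117− fractions. In CD117+ cells 27 of the 33 synthetase genes were higher and none was lower. Of the cytosolic genes 16 of 19 were higher (84.2%) and of the mitochondrial genes 11 of 14 (78.6%), where 29.6% of all genes were higher and 21.3% lower. The median log2 fold change was 0.84 for the cytosolic and 1.09 for the mitochondrial genes, against 0.07 for all genes. Scaling the arrays by their medians in place of quantile normalization moved the median of all genes to 0.49 and the share of called genes that were higher to 85.4%, against 58.1%, and relative to all genes the cytosolic median was then 0.98, against 0.77, and the mitochondrial one 1.29, against 1.02. Summed intensity of the cytosolic genes (normalized values on the linear scale) was 21000 to 21400 on the C arrays and 10200 to 11800 on the A arrays, and that of the mitochondrial genes was 4680 to 5070 on the C arrays and 1960 to 2230 on the A arrays. The ranges did not overlap. Bright probes, such as that of Gars (mean log2 intensity 12.48 on the C arrays), weigh most in these and the later sums.

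The cytosolic gene that differed most was Vars, the valine enzyme. Its log2 intensity was 10.69, 10.66 and 10.38 on the C arrays and 8.07, 7.87 and 7.92 on the A arrays. The C arrays were all above the A arrays, by 6.16-fold in the fit (log2 fold change 2.62 with a standard error of 0.20, adjusted p = 1.34e-08). That size belonged to 1 of its 3 probes. A probe of nearly the same brightness (mean log2 intensity 9.08, against 9.19) gave 0.61 (adjusted p = 0.122 over all detected probes) and a dimmer one (6.31) gave -0.15 (adjusted p = 0.661). With the 6 C and A arrays fitted alone, that second probe was the brightest and Vars was not called (0.61, adjusted p = 0.139).

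Farsb, the β subunit of the phenylalanine enzyme, had 11.23, 11.34 and 11.29 on the C arrays and 10.17, 10.09 and 9.93 on the A arrays. It was 2.34-fold higher in C cells (log2 fold change 1.23 with a standard error of 0.12, adjusted p = 2.12e-07), and its other bright probe gave 1.26. Farsa, the α subunit of the same enzyme, was 1.74-fold higher (adjusted p = 0.000522).

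All 7 tested enzymes of the multisynthetase complex were higher in CD117+ cells, with a median log2 fold change of 1.05 and a range of 0.64 to 1.16. Eprs led them. It had 8.54, 8.51 and 8.61 on the C arrays and 7.26, 7.27 and 7.64 on the A arrays, 2.23-fold higher in C cells (log2 fold change 1.16 with a standard error of 0.20, adjusted p = 0.000118). The C arrays lay close together and above every A array. Iars, Kars, Rars, Mars and Qars, the enzymes of isoleucine, lysine, arginine, methionine and glutamine, were between 2.00-fold (Qars, log2 fold change 1.00) and 2.18-fold (Iars) higher, and Lars, the leucine enzyme, was 1.56-fold higher. Their adjusted p-values ran from 1.65e-06 for Qars to 0.000351 for Lars. The second probes of Eprs (mean 4.9) and Kars (mean 6.3) gave 0.27 and 0.35. Neither was called (adjusted p = 0.456 and 0.411 over all detected probes). Iars, Lars, Qars and Rars each had a second probe called higher.

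Among the 12 other cytosolic genes 9 were higher, with a median of 0.75. Beside Vars, Farsb and Farsa these were Wars (tryptophan, 1.89-fold), Gars (1.79-fold), Hars (histidine, 1.70-fold), Nars (asparagine, 1.65-fold), Yars (1.31-fold, above background on 1 of 3 A arrays) and Cars. A second Hars probe of like brightness gave -0.39 and was not called (adjusted p = 0.102 over all detected probes), so no direction is read for Hars. Cars, the cysteine enzyme, was called at an adjusted p of 0.032, but it was above background on 2 of 3 C arrays and on 0 of 3 A arrays, and no fold is given because its bound does not pass 1. Cars and Yars lost their calls without A replicate 1, A replicate 2, C replicate 1 or C replicate 2 (adjusted p of 0.0638 to 0.123 for Cars and 0.0592 to 0.104 for Yars). Aars, Tars and Sars, the enzymes of alanine, threonine and serine, were not called. Their log2 fold changes were 0.12 (95% interval -0.14 to 0.38), 0.26 (-0.13 to 0.64) and 0.22 (-0.13 to 0.57), so their intervals lie below the median of the cytosolic genes. The other detected probe of Sars was called higher at 0.47 (adjusted p = 0.0287 over all detected probes).

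Of the mitochondrial genes Ears2, the glutamate enzyme, differed most. Its log2 intensity was 8.29, 8.19 and 8.06 on the C arrays and 6.51, 6.47 and 6.41 on the A arrays. The A arrays lay close together and far below the C arrays, and the gene was 3.29-fold higher in C cells (log2 fold change 1.72 with a standard error of 0.15, adjusted p = 5.99e-08). A dim second probe (mean 4.55) gave 0.25 (adjusted p = 0.0947 over all detected probes).

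Vars2, the mitochondrial valine enzyme, had 8.81, 8.77 and 8.67 on the C arrays and 7.49, 7.56 and 6.80 on the A arrays. It was 2.76-fold higher in C cells (log2 fold change 1.46 with a standard error of 0.18, adjusted p = 2.97e-06), with 1 A array well below the other A arrays. Lars2 (2.73-fold), Tars2 (2.61-fold), Rars2 (2.59-fold), Iars2 (2.56-fold), Cars2 (2.18-fold), Mars2 (2.09-fold), Pars2 (2.04-fold), Sars2 (1.64-fold) and Fars2 (1.57-fold) were higher as well. These load leucine, threonine, arginine, isoleucine, cysteine, methionine, proline, serine and phenylalanine in mitochondria. A second probe of Cars2, bright on all arrays (mean 7.07), gave 0.08 and was not called.

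Nars2, the mitochondrial asparagine enzyme, was above background on 3 of 3 C arrays and on 0 of 3 A arrays. Its estimate against the dimmest signal above background was at least 1.05-fold higher in C cells. That bound carries no interval, and the gene was not called (adjusted p = 0.0599), so no difference is read for it. Wars2 (tryptophan) was above background on 1 of 3 C arrays and on no A array, and Aars2 (alanine) on none of these 6, so no fold is given for either.

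Both enzymes were tested for 11 amino acids, and for 7 of these both genes were above background in both groups. In 6 of the 7 pairs the mitochondrial gene had the larger log2 fold change and in 1 the cytosolic gene. Tars2 (1.39) against Tars (0.26), Lars2 (1.45) against Lars (0.64) and Sars2 (0.71) against Sars (0.22) had the larger mitochondrial change, and Vars2 (1.46) against Vars (2.62) the larger cytosolic one, which rests on 1 of the Vars probes. In 5 of the 7 pairs both genes were higher in CD117+ cells.

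**Figure D2:**
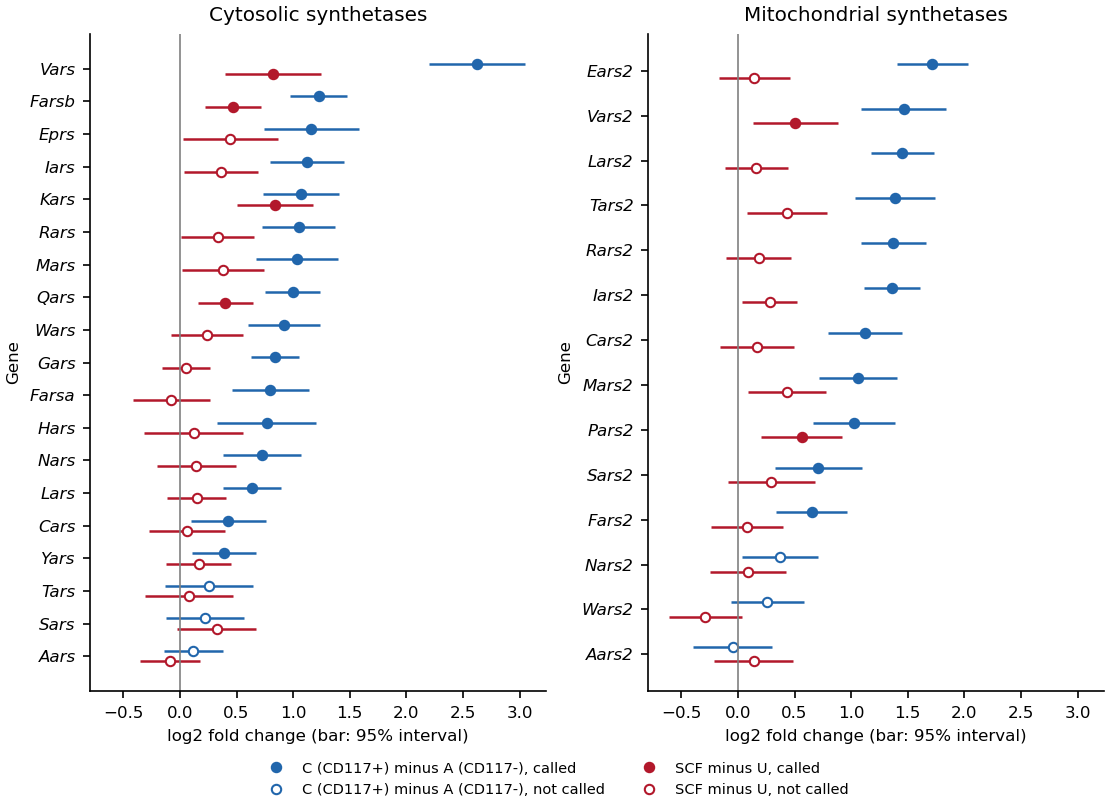
Log2 fold change of each gene (points) with its 95% interval (bars) in C minus A (blue) and SCF minus U (red), with filled points for genes called in that comparison. Nearly all blue points lie right of the red ones, and Kars is the gene with the largest called red point (0.84). The blue points of Cars, Nars2, Wars2 and Aars2 stand against A arrays at background.

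The comparison of SCF with U cells asked what 48 h of SCF changed. Few synthetase genes were called, and all of those were higher with SCF. Of the cytosolic genes 4 of 19 were higher (21.1%), of the mitochondrial genes 2 of 14 (14.3%) and none was lower, where 14.1% of all genes were higher and 13.7% lower. The shares are near those of all genes. The median log2 fold change was 0.24 for the cytosolic and 0.18 for the mitochondrial genes, against 0.02 for all genes, and 30 of the 33 had a positive sign. Summed cytosolic intensity was 23400 to 25300 on the SCF arrays and 19400 to 20900 on the U arrays, and summed mitochondrial intensity was 3860 to 4200 on the SCF arrays and 3290 to 3590 on the U arrays.

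Kars, the lysine enzyme of cytosol and mitochondria, differed most. Its log2 intensity was 10.34, 10.20 and 10.83 on the SCF arrays and 9.71, 9.60 and 9.53 on the U arrays. Every SCF array was above every U array, and the gene was 1.79-fold higher with SCF (log2 fold change 0.84 with a standard error of 0.16, adjusted p = 0.000778). Its second probe was called too (1.10, adjusted p = 0.0212 over all detected probes).

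Vars had 9.29, 9.21 and 10.07 on the SCF arrays and 9.01, 8.45 and 8.65 on the U arrays, 1.77-fold higher with SCF (log2 fold change 0.82 with a standard error of 0.20, adjusted p = 0.00542). The lowest SCF array was only slightly above the highest U array, and SCF replicate 3 stood above the other SCF arrays. Its other probes gave 0.87 and 1.03 (adjusted p = 0.0523 and 0.00637 over all detected probes), so the 3 probes lay closer here than in C against A.

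Farsb had 11.47, 11.58 and 11.28 on the SCF arrays and 11.11, 10.84 and 10.98 on the U arrays. It was 1.38-fold higher with SCF (log2 fold change 0.47 with a standard error of 0.12, adjusted p = 0.00688), without overlap of the arrays. Farsa, its partner subunit, did not follow, at -0.08 (95% interval -0.42 to 0.26). The fourth cytosolic gene called was Qars (1.32-fold, adjusted p = 0.0143), whose call was lost at a log2 fold change of 0.36 without U replicate 1 (adjusted p = 0.0617) and at 0.34 without SCF replicate 3 (adjusted p = 0.0625).

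Pars2, the mitochondrial proline enzyme, had 6.68, 7.05 and 7.21 on the SCF arrays and 6.56, 6.35 and 6.34 on the U arrays. It was 1.48-fold higher with SCF (log2 fold change 0.56 with a standard error of 0.17, adjusted p = 0.0201), with 1 SCF array close to the highest U array. Leaving out U replicate 2 or 3 or SCF replicate 2 or 3 lost the call (0.45 to 0.53, adjusted p = 0.0572 to 0.0848). Vars2 had 8.37, 8.23 and 8.35 on the SCF arrays and 7.81, 7.71 and 7.90 on the U arrays, 1.42-fold higher with SCF (log2 fold change 0.51 with a standard error of 0.18, adjusted p = 0.0417). Its arrays did not overlap, yet the call sat near the threshold, and leaving out any 1 of the SCF, U or C arrays lost it (0.46 to 0.55, adjusted p = 0.0512 to 0.126).

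The remaining genes were not called. Eprs (0.45, adjusted p = 0.11), Mars (0.38), Iars (0.36) and Rars (0.33) of the complex, and Mars2 (0.44, adjusted p = 0.0562), Tars2 (0.44, adjusted p = 0.0615) and Iars2 (0.28) of the mitochondria had intervals that excluded 0 before adjustment. Other probes of Iars2 (0.48, adjusted p = 0.0176), Mars2 (0.68, adjusted p = 0.00663) and Wars (0.59, adjusted p = 0.0437 over all detected probes) were called higher. Sars, Sars2, Wars, Yars, Lars, Nars, Hars, Tars, Cars, Gars, Rars2, Cars2, Lars2, Ears2, Aars2, Nars2 and Fars2 lay between 0.05 (Gars) and 0.32 (Sars). Beside Farsa, Aars (-0.08) and Wars2 (-0.29, 95% interval -0.61 to 0.04) were the genes with a negative sign.

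**Figure D3:**
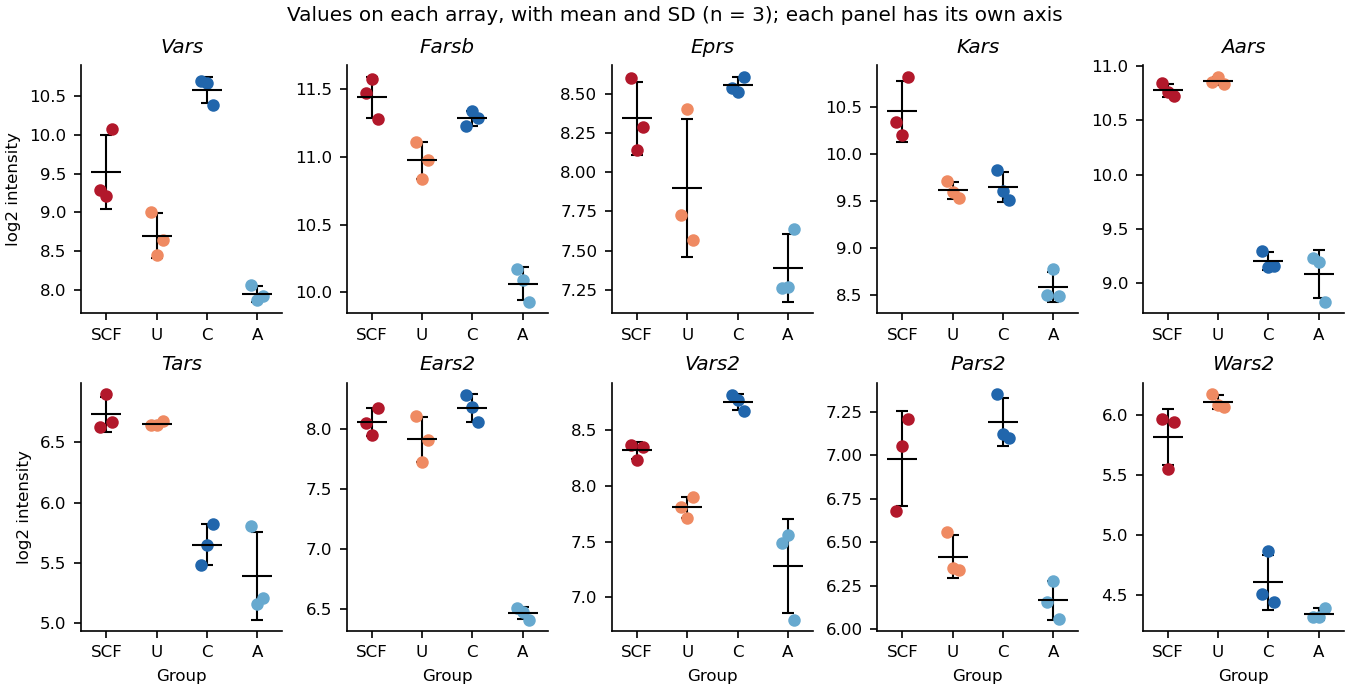
Log2 intensity of 10 genes on each array (points) with the mean and SD of each group (bars, n = 3), groups in the order SCF, U, C and A, each panel on its own axis. Vars is highest on the C arrays, Kars on the SCF arrays, and Aars, Tars and Wars2 are higher on the SCF and U arrays than on the C and A arrays.

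The 2 comparisons share no array, so the difference between them was tested directly, as SCF minus U less C minus A. Over all genes 15.5% were higher and 20.2% lower in that test. No synthetase gene was higher, and 10 of 19 cytosolic (52.6%) and 9 of 14 mitochondrial genes (64.3%) were lower, which means a smaller difference of SCF from U than of C from A. Vars (-1.80, adjusted p = 0.000102), Farsa (-0.88), Gars (-0.78), Iars (-0.76), Farsb (-0.76), Rars (-0.71), Wars (-0.68), Mars (-0.65), Qars (-0.59) and Lars (-0.49) were the cytosolic genes. Ears2 (-1.57, adjusted p = 2.01e-05), Lars2 (-1.29), Rars2 (-1.19), Iars2 (-1.08), Vars2 (-0.96), Cars2 (-0.95), Tars2 (-0.95), Mars2 (-0.62) and Fars2 (-0.57) were the mitochondrial ones. For Kars the difference was -0.23 (95% interval -0.70 to 0.25) and not called. Only the brightest probe of each gene was put through this test. The other Vars probes gave 0.61 and -0.15 in C against A and 0.87 and 1.03 in SCF against U cells. Those of Wars gave 0.62, 0.33 and 0.14 in C against A and 0.59, 0.54 and 0.63 in SCF against U cells. The Vars and Wars results therefore rest on 1 probe each. For Cars2 another probe, bright on all arrays (mean 7.07), gave 0.08 and -0.02, so the size of its difference rests on 1 probe too. Dim probes of Gars (mean 4.56, -0.38 and -0.13) and Iars (mean 4.7, -0.09 and 0.22) went the other way. Other probes of Farsb, Lars, Qars, Rars, Ears2, Iars2, Mars2 and Rars2, and a brighter Iars probe, gave lower values in SCF against U cells. Farsa, Mars, Lars2, Vars2, Tars2 and Fars2 had no other detected probe.

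The 2 sets of CD117+ cells without SCF, U and C, differed from each other as well. A difference between the compartments was not tested. U arrays and C arrays belong to sets that the authors normalized separately, so any difference also carries the array set, and it cannot be told apart from one of the cells or their culture. The comparison shares the C arrays with C against A and the U arrays with SCF against U, so its values are given beside theirs and not as further evidence. Of the cytosolic genes 4 were higher and 6 lower in U cells, and of the mitochondrial genes 1 was higher and 7 were lower, where 28.5% of all genes were higher and 28.5% lower. The median log2 fold change was 0.10 for the cytosolic and -0.45 for the mitochondrial genes, against -0.01 for all genes. The cytosolic median turned to -0.17 with the mean of all probes of a gene, was 0.04 without U replicate 1, 0.03 with a stricter filter on dim probes and 0.25 with median scaling, and with median scaling 61.1% of called genes over the whole array were higher, against 50%, with the mitochondrial median at -0.31. Summed mitochondrial intensity was 3290 to 3590 on the U arrays and 4680 to 5070 on the C arrays. Summed cytosolic intensity was also lower on the U arrays, at 19400 to 20900, than on the C arrays, at 21000 to 21400. The cytosolic sum thus went the other way from the positive cytosolic median.

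The genes given on every array in this comparison were chosen after their values were seen. Aars had 10.85, 10.90 and 10.83 on the U arrays and 9.30, 9.15 and 9.16 on the C arrays. It was 3.14-fold higher in U cells (log2 fold change 1.65 with a standard error of 0.12, adjusted p = 9.05e-09). The SCF arrays, at 10.84, 10.76 and 10.72, were at the level of the U arrays, and the A arrays, at 9.23, 9.20 and 8.83, at that of the C arrays. The 4 groups thus formed a high pair and a low pair for this gene.

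Tars was likewise higher on the U and SCF arrays than on the C arrays. It had 6.64, 6.64 and 6.68 on the U arrays and 5.48, 5.65 and 5.82 on the C arrays, 2.00-fold higher in U cells (log2 fold change 1.00 with a standard error of 0.18, adjusted p = 0.000171). On the SCF arrays it had 6.63, 6.90 and 6.67, and on the A arrays 5.81, 5.16 and 5.21, with the highest A array inside the range of the C arrays. Iars (1.36-fold, adjusted p = 0.0221) and Nars (1.33-fold, adjusted p = 0.0421) were also higher in U cells. Both calls were lost when single arrays were left out, for Iars C replicate 1, C replicate 2 or U replicate 3 (0.31 to 0.44, adjusted p = 0.0516 to 0.115) and for Nars any C array, U replicate 2, U replicate 3 or SCF replicate 2 (0.38 to 0.44, adjusted p = 0.0504 to 0.108).

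Wars2 was the mitochondrial exception. It had 6.17, 6.08 and 6.06 on the U arrays and 4.51, 4.87 and 4.45 on the C arrays, of which 1 was above background. The log2 difference was 1.49 (standard error 0.15, adjusted p = 3.41e-07). Its cytosolic counterpart Wars was not called, at 0.14. The Wars2 values come from 1 of its 4 probes, and the others were above background on no array.

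Lower in U than in C cells were Vars (3.65-fold), Farsa (2.69-fold), Hars (2.39-fold), Qars (2.00-fold), Eprs (1.57-fold) and Farsb (1.24-fold) of the cytosolic genes. Eprs was not called without U replicate 3 (-0.49, adjusted p = 0.0599), and Farsb was not without C replicate 2 or 3 or U replicate 2 or 3 (-0.32 to -0.25, adjusted p = 0.0549 to 0.125). The mitochondrial genes lower in U cells were Sars2 (2.52-fold), Tars2 (1.93-fold), Vars2 (1.92-fold), Pars2 (1.71-fold), Iars2 (1.71-fold), Mars2 (1.70-fold) and Lars2 (1.49-fold). All 3 Vars probes were lower (-1.87, -1.36 and -2.51), as was Vars2. Hars had 2 probes of like brightness that were called in opposite directions (-1.25 and 0.53), so no direction is read for it. Kars was at -0.04 on the probe used and lower on its second probe (-2.02, adjusted p = 6.65e-05 over all detected probes). For threonine and isoleucine the enzymes of the 2 compartments were called in opposite directions, with Tars and Iars higher and Tars2 and Iars2 lower. Of the 10 pairs with both genes above background in both groups, the mitochondrial gene had the lower log2 fold change in 8, the exceptions being Vars2 and Wars2.

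Against the C cells as control, SCF cells had 9 cytosolic genes higher and 4 lower, and 1 mitochondrial gene higher and 4 lower, where 24.6% of all genes were higher and 21.9% lower. The median log2 fold change was 0.27 for the cytosolic and -0.18 for the mitochondrial genes, and that of all genes was -0.01. The cytosolic median was 0.17 without C replicate 3, 0.10 with the mean of probes and 0.47 with median scaling, and the mitochondrial one was -0.32 without SCF replicate 3. With median scaling the mitochondrial median turned to 0.10, which was 0.09 below that of all genes (0.18), and 73.8% of called genes were higher, against 52.9%. Aars (2.96-fold), Tars (2.12-fold), Kars (1.75-fold), Iars (1.74-fold), Nars (1.47-fold), Sars (1.44-fold), Yars (1.38-fold), Wars (1.30-fold) and Lars (1.26-fold) were higher in SCF cells. Farsa (2.84-fold), Hars (2.19-fold, with the opposite call on its second probe), Vars (2.07-fold) and Qars (1.52-fold) were lower. Of the mitochondrial genes Wars2 was higher (log2 fold change 1.21) and Sars2 (2.05-fold), Tars2 (1.43-fold), Iars2 (1.40-fold) and Lars2 (1.34-fold) were lower. Leaving out SCF replicate 3 lost the calls of Nars (0.45, adjusted p = 0.0516) and Sars (0.33, adjusted p = 0.0782), that of Wars was lost without any 1 of the SCF, U or C arrays (adjusted p = 0.0505 to 0.121), and that of Lars without any C array or SCF replicate 2 (adjusted p = 0.058 to 0.19). Tars2 lost its call without C replicate 1 or SCF replicate 1 or 2 (adjusted p = 0.0588 to 0.0967) and Lars2 without C replicate 1 or 3 (adjusted p = 0.0549 to 0.0688). Among genes called higher in SCF than in U cells, Vars, Qars, Vars2 and Pars2 had SCF means below those of C cells. The log2 differences from U and from C cells were 0.82 and -1.05, 0.40 and -0.60, 0.51 and -0.43, and 0.56 and -0.21. The last 2 of the differences from C cells (Vars2, adjusted p = 0.0543, and Pars2, adjusted p = 0.328) were not called. Eprs, Hars on the probe used and most mitochondrial genes also had SCF means between those of U and C cells. Kars on its second probe was lower than in C cells (-0.91, adjusted p = 0.0318 over all detected probes), against 0.80 on the probe used.

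**Figure D4:**
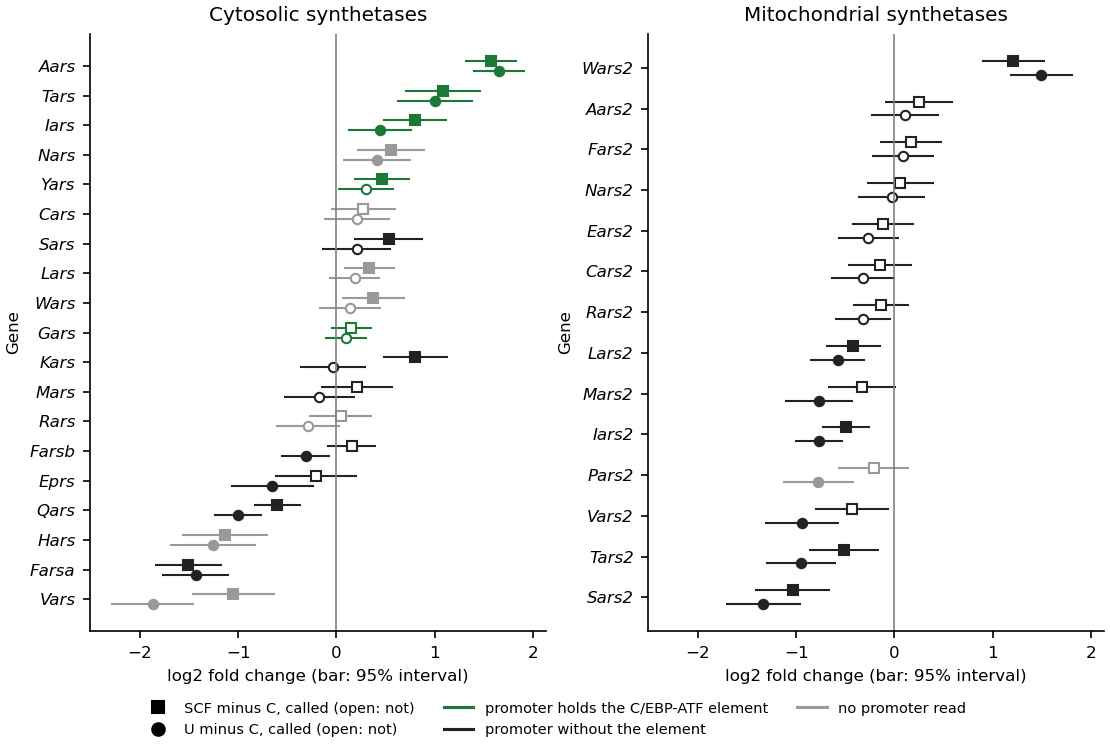
Log2 fold change with its 95% interval for SCF minus C (squares) and U minus C (circles), filled where called, with the colour giving whether the promoter holds the composite element. The genes with the element (green) all lie right of 0, and the mitochondrial genes other than Wars2 lie mostly left of it.

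Set beside the promoters printed above, the 5 genes with the composite element were Aars, Tars, Iars, Yars and Gars. In U against C cells 3 of them were higher and none was lower, with a median log2 fold change of 0.44. Of the 20 tested genes whose promoter lacks it, 1 was higher and 10 were lower, with a median of -0.32. In SCF against C cells 4 of the 5 were higher and none was lower (median 0.80), while of the 20 others 3 were higher and 6 lower (median -0.14). In C against A cells the 5 genes had a median of 0.39, with 3 called higher, and the others one of 1.06, with 16 called higher. In SCF against U cells none of the 5 was called (median 0.08), and 4 of the 20 others were higher (median 0.29). By the E-box instead, the 5 genes with it were Aars, Tars, Iars, Farsb and Ears2, of which the first 3 hold both motifs. In U against C cells 3 were higher and 1 was lower (median 0.44), and of the 20 others 1 and 9 (-0.32). In SCF against C cells 3 were higher and 0 lower (0.80), and of the others 4 and 6 (-0.14). Medians with and without it were 1.12 and 1.015 in C against A and 0.15 and 0.23 in SCF against U. Over all genes 28.5% were higher and 28.5% lower in U against C cells, and 24.6% and 21.9% in SCF against C cells. The shares were 29.6% and 21.3% in C against A and 14.1% and 13.7% in SCF against U cells. Some of the counts by motif are near these shares. The part of either motif was not tested. These are counts of few genes and include the mitochondrial ones, none of which has the composite element. Nars, higher in U cells, had no promoter read here.

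Genes known to respond to ATF4 ran as follows. Of 22 tested, 17 were higher (77.3%, against 28.5% of all genes) and 4 lower (18.2%, against 28.5%) in U than in C cells. Their median was 1.34. Chac1, a glutathione-degrading enzyme (23.03-fold), Vldlr, a lipoprotein receptor (22.4-fold), and Atf3, a stress-induced transcription factor (at least 13.7-fold, above background on 0 of 3 C arrays), were among the increases. Phgdh of serine synthesis (2.16-fold lower), Slc1a5 of glutamine uptake (at least 1.6-fold lower, above background on 0 of 3 U arrays) and Aldh18a1 of proline synthesis (1.52-fold lower) were among the decreases. Atf4 itself was 2.55-fold higher in U cells (adjusted p = 1.27e-06). In SCF against C cells 16 were higher (72.7%, against 24.6% of all genes) and 1 lower (4.55%, against 21.9%). In SCF against U cells 3 were higher (13.6%, near the 14.1% of all genes), with Phgdh at 2.96-fold. Lower were 7 (31.8%, against 13.7%), with Atf3 at 3.30-fold lower. In C against A cells 6 were higher (27.3%, near the 29.6% of all genes) and 7 lower (31.8%, against 21.3%). Their median was -0.26. Summed intensity of the 22 genes was 17000 to 18800 on the SCF, 19300 to 20600 on the U, 9660 to 9780 on the C and 8000 to 9170 on the A arrays, so SCF and U arrays stood apart from C and A arrays as they did for Aars and Tars.

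Genes whose proteins work with the synthetases were mostly higher in C than in A cells and lower in U than in C cells at the RNA level. Of 19 tested partners 18 were higher in C than in A cells (94.7%, against 29.6% of all genes), with a median of 0.81. Eef1e1 of the multisynthetase complex (3.15-fold), the mitochondrial elongation factor Tufm (2.61-fold) and Dtd1, which removes D-amino acids from tRNA (2.40-fold), led them, and only Eef1a1, the carrier of loaded tRNA to the ribosome, was not called. In SCF against U cells 9 were higher (47.4%, against 14.1% of all genes) and none was lower, with Gatb (1.79-fold), Aimp2 (1.72-fold) and Eef1d (1.69-fold) in the lead. In U against C cells 18 were lower (94.7%, against 28.5% of all genes) and none higher (median -0.72), with Eef1d (2.14-fold lower), Aimp2 (2.09-fold lower) and Gatb (2.06-fold lower) at the front. In SCF against C cells 5 were lower, 26.3%, near the 21.9% of all genes. The scaffolds Aimp1, Aimp2 and Eef1e1 were thus all higher in C than in A cells and all lower in U than in C cells.

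Of 7 tested genes of MYC, its partner MAX and their relatives, Myc was 3.60-fold higher in C than in A cells, 4.23-fold higher in SCF than in U cells and 5.80-fold lower in U than in C cells. Mxd1, which competes with MYC for MAX, was 9.41-fold lower in C than in A cells and 2.10-fold lower in SCF than in U cells. Of the list 1 gene was higher and 3 were lower in C against A cells, 1 and 2 in SCF against U cells, 2 and 2 in U against C cells, and 1 and 1 in SCF against C cells, where Mlx (1.79-fold higher) and Mxd1 (1.68-fold lower) were called. Over all genes, in the same order, 29.6% were higher and 21.3% lower, 14.1% and 13.7%, 28.5% and 28.5%, and 24.6% and 21.9%.

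Markers of blood cell types and of the cell cycle moved with the same comparisons. Mature neutrophil genes were lower in C than in A cells in 10 of 11 cases, with summed intensities of 1560 to 2640 on the C arrays and 97100 to 108000 on the A arrays, and all 6 B cell genes were lower, with 1020 to 1280 on the C arrays and 8290 to 11200 on the A arrays. Of the stem and progenitor genes 6 of 8 were higher, with 11100 to 11400 on the C arrays and 5370 to 6960 on the A arrays. Of the mast cell and basophil genes 5 of 7 were higher and 1 was lower. Lower were 7 of 9 monocyte and macrophage genes, 3 of 4 eosinophil genes and 5 of 9 erythroid genes, with 1 erythroid gene higher. Of the megakaryocyte and platelet genes 4 of 10 were higher. Of the cell cycle genes 4 of 11 were higher and 2 lower. With SCF, 10 of 11 cell cycle genes were higher, with sums of 13400 to 16300 on the SCF arrays and 7260 to 8100 on the U arrays, and 9 of 10 megakaryocyte and platelet genes were lower, with 23100 to 24900 on the SCF arrays and 61100 to 63700 on the U arrays. Also lower with SCF were 7 of 9 erythroid genes (10700 to 13700 on the SCF arrays and 27900 to 29400 on the U arrays), all 4 eosinophil genes (1600 to 1740 on the SCF arrays and 11000 to 13700 on the U arrays) and 7 of 9 monocyte and macrophage genes (4030 to 7910 on the SCF arrays and 9510 to 14000 on the U arrays). In U against C cells 10 of 11 neutrophil genes were higher (33400 to 35500 on the U arrays and 1560 to 2640 on the C arrays), all 9 monocyte and macrophage genes were higher (9510 to 14000 on the U arrays and 1250 to 1460 on the C arrays), 9 of 10 megakaryocyte and platelet genes were higher (61100 to 63700 on the U arrays and 10100 to 14800 on the C arrays) and 9 of 11 cell cycle genes were lower (7260 to 8100 on the U arrays and 19300 to 21200 on the C arrays). In SCF against C cells 10 of 11 neutrophil genes were higher (30900 to 34800 on the SCF arrays and 1560 to 2640 on the C arrays), as were 7 of 9 monocyte and macrophage genes (4030 to 7910 on the SCF arrays and 1250 to 1460 on the C arrays) and 7 of 10 megakaryocyte and platelet genes (23100 to 24900 on the SCF arrays and 10100 to 14800 on the C arrays), while 8 of 9 erythroid genes (10700 to 13700 on the SCF arrays and 35000 to 42600 on the C arrays) and 7 of 11 cell cycle genes (13400 to 16300 on the SCF arrays and 19300 to 21200 on the C arrays) were lower. Of the 8 stem and progenitor genes 3 were higher and 0 lower in SCF against U cells. In U against C cells 1 of them was higher and 4 were lower, and in SCF against C cells 2 and 2. Over all genes 29.6% were higher and 21.3% lower in C against A, and 14.1% and 13.7% in SCF against U cells. In U against C cells these shares were 28.5% and 28.5%, and in SCF against C cells 24.6% and 21.9%. The part of these lists in the differences of the synthetase genes was not tested.

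Several genes had more than 1 probe above background, which gives a second measurement. For 19 genes there were 26 other detected probes. Their call was the same as that of the brightest probe in 12 of 26 for C against A, 20 for SCF against U, 22 for U against C and 17 for SCF against C, and it was opposite in 0, 0, 1 and 2. The opposite calls were those of Hars and of Kars described above. Farsb, Qars, Rars, Rars2, Iars2, Mars2 and Pars2 each had another probe called higher in C than in A cells. Gars had a second probe near background (mean 4.56) at -0.38, and with the mean of its probes its call was lost (0.23, adjusted p = 0.188), as was that of Hars (0.19, adjusted p = 0.18).

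**Figure D5:**
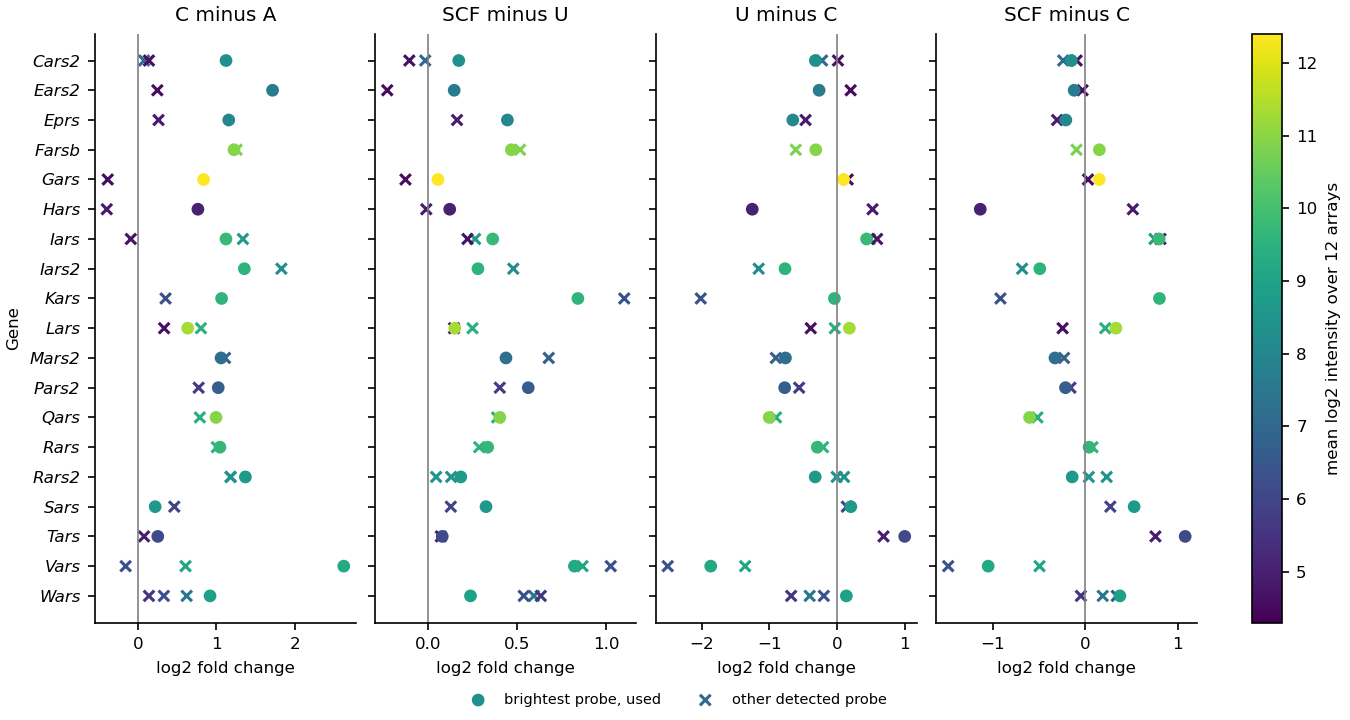
Log2 fold change of every detected probe for the 19 genes with more than 1, in C minus A, SCF minus U, U minus C and SCF minus C, with circles for the brightest probe, crosses for the others and colour for mean log2 intensity. The Vars probes lie between -0.15 and 2.62 in C minus A and close together in SCF minus U, and the Kars and Hars probes lie on opposite sides of 0 in SCF minus C.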

How the data were processed

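Gene expression was measured on 12 Illumina mouse arrays, 3 in each of 4 groups taken from the labels. The authors deposited linear scanner intensities of 45281 probes, not normalized, and beside each of them a detection p-value. A second deposited table has processed intensities, quantile normalized separately for the A and C arrays and for the U and SCF arrays, as their values show. The array software is not given in the sources used here, and the methods speak of sequencing although these are array values. Platform symbols, updated with RefSeq tables, gave 35784 probes 1 symbol, 0 several and 9497 none.

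Intensities were background-corrected and quantile normalized over all arrays with neqc (offset 16). Kept were probes whose detection p was under 0.05 on 3 or more arrays, of which the brightest stood for its gene. Group means were fitted with lmFit and eBayes with a trend (8 residual degrees of freedom, limma 3.58.1, R 4.3.3) and called at an adjusted p under 0.05. The script was tested on simulated data. Other probes were fitted among all detected probes. Of a gene above background on no array of 1 group the text gives a bound, against the dimmest signal above background, or no fold. Plots and medians use its fitted value. Precision is limited by 3 arrays a group.

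The members, gene lists and tests were chosen with earlier results of these data known. Genes given on every array were, in C against A and in SCF against U, the 3 cytosolic and 2 mitochondrial genes with the largest increase among called genes whose arrays did not overlap, and none qualified as a decrease. Alternatives were an offset of 50, median scaling, the authors' processed values, no filter, a stricter filter (p under 0.01 on 6 arrays), the mean of probes, only the 6 arrays compared, a replicate block, leaving out each array, and other controls for SCF. Plots used matplotlib 3.10.9 and Python 3.11.15.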

Additional observations from a re-analysis of the deposited data

How the results depend on the processing

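In C against A cells the counts of called synthetase genes stayed within 1.5 times of those reported under every alternative run, with 13 to 18 cytosolic and 11 to 12 mitochondrial genes higher and 0 lower. SCF against U cells depended on the control. With the C arrays as control 9 cytosolic genes were higher and 4 lower, and 1 mitochondrial gene was higher and 4 lower. With that control Vars (-1.05), Qars (-0.60), Vars2 (-0.43) and Pars2 (-0.21) turned their sign. With the U and C arrays together as control 1 cytosolic and 0 mitochondrial genes were higher, and Vars (-0.11) and Qars (-0.10) turned. Over all 11472 genes 297 were higher and 221 lower with that joint control, against 1616 and 1568 with the U arrays alone. The loss of calls was thus not particular to the synthetase genes. Farsb lost its call under both of these controls, and Pars2 and Vars2 lost theirs under the second. The count of mitochondrial genes higher with SCF was 1 without the filter on dim probes, 5 with the mean of probes, and 0 to 4 when each array was left out. In U against C cells 2 mitochondrial genes were higher without the filter, and 2 to 4 cytosolic genes were higher when an array was left out. In SCF against C cells 2 mitochondrial genes were higher and 1 was lower with median scaling, 1 to 2 were higher and 2 to 5 lower when an array was left out, and Kars turned to -0.056 with the mean of probes, whose second probe has the opposite sign. The cause of the other changes was not tested. Other settings that ended calls were median scaling for Cars in C against A cells, Farsb and Eprs in U against C cells and Qars, Tars2, Iars2 and Lars2 in SCF against C cells, and no filter for Yars in C against A, Nars and Farsb in U against C, Vars2 in SCF against U and Wars and Lars in SCF against C cells. In C against A cells the authors' processed values also ended the calls of Cars and Yars, the offset of 50 that of Cars, the fit of only the 6 arrays compared those of Vars and Yars, and the mean of probes those of Gars and Hars. In SCF against C cells the mean of probes ended those of Wars and Lars, and the replicate block that of Wars. The authors' processed values were used only within the sets normalized together. Deviations of arrays with equal replicate numbers from their group means correlated at -0.19 to 0.21, which cannot tell whether those arrays shared a mouse. With the replicate number as a block 16 cytosolic and 11 mitochondrial genes were higher in C against A cells and 4 and 2 in SCF against U cells. Under that block 8 against 9 cytosolic genes were higher in SCF against C cells, and the other counts of synthetase genes were those reported. Signals near background, as for Cars, Aars2, Nars2 and Hars, limit what can be called.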
